A study of Mus musculus with 12 samples.

Results

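The 10 genes described here encode the enzymes that remove superoxide and peroxides: the superoxide dismutases Sod1, Sod2 and Sod3, catalase (Cat), the glutathione peroxidases Gpx1, Gpx3 and Gpx4, and the peroxiredoxins Prdx2, Prdx3 and Prdx5. They were taken by name, as the probesets to which the platform annotation gives that symbol and no other, and all 10 were found among 20352 genes, with 75 probesets in all (3 for Gpx1 up to 16 for Cat). The infarcted group held 6 samples of the tissue that borders a myocardial infarct, from hearts of C57BL/6J mice aged 12 weeks, taken 2 weeks after the operation. The sham group held 6 samples of the matching site after a sham operation, with the same strain, age and time. The labels name no transgene, drug or batch for either group and do not say whether animals were pooled. The title sets mouse beside zebrafish heart injury, and the fish were not analysed here.

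Superoxide leaks from the respiratory chain and is made by NADPH oxidases. Superoxide dismutases turn it into hydrogen peroxide, which catalase breaks down in peroxisomes and which glutathione peroxidases and peroxiredoxins reduce with electrons that come, through glutathione or thioredoxin, from NADPH. In the heart the load is high because cardiomyocytes are packed with mitochondria. The enzymes differ above all in where they sit: cytosol, mitochondrial matrix, peroxisome, membrane or outside the cell.

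The enzymes did not move as a block. The extracellular dismutase Sod3, the secreted peroxidase Gpx3 and the cytosolic and mitochondrial peroxidase Gpx1 rose by 0.58, 0.75 and 0.48 on the log2 scale. Sod2, Gpx4, Prdx2, Prdx3 and Prdx5 fell, by 0.23, 0.26, 0.46, 0.37 and 0.26. Sod1 and Cat did not pass (-0.16 and -0.19). Of the 10 genes, 8 therefore passed an adjusted p of 0.05 (limma, infarcted minus sham), against 20.3% of all 20352 genes. The 3 that were higher and the 5 that were lower stand beside 10.1% and 10.2% of all genes. In 7 of the 10 the infarcted and sham arrays did not overlap, against 11.3% of all genes, and in all 10 every infarcted array lay on one side of the sham mean. The median change of the 10 was -0.21, beside -0.04 for all genes. The 10 genes were chosen with earlier results of these data known, so their shares beside those of all genes are a description only. When every array was first centred by its own median, the 3 rises passed again and all 7 other genes passed as lower. Over all genes this scaling gave 1748 higher and 2956 lower, in place of 2050 and 2074.

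**Figure D1:**
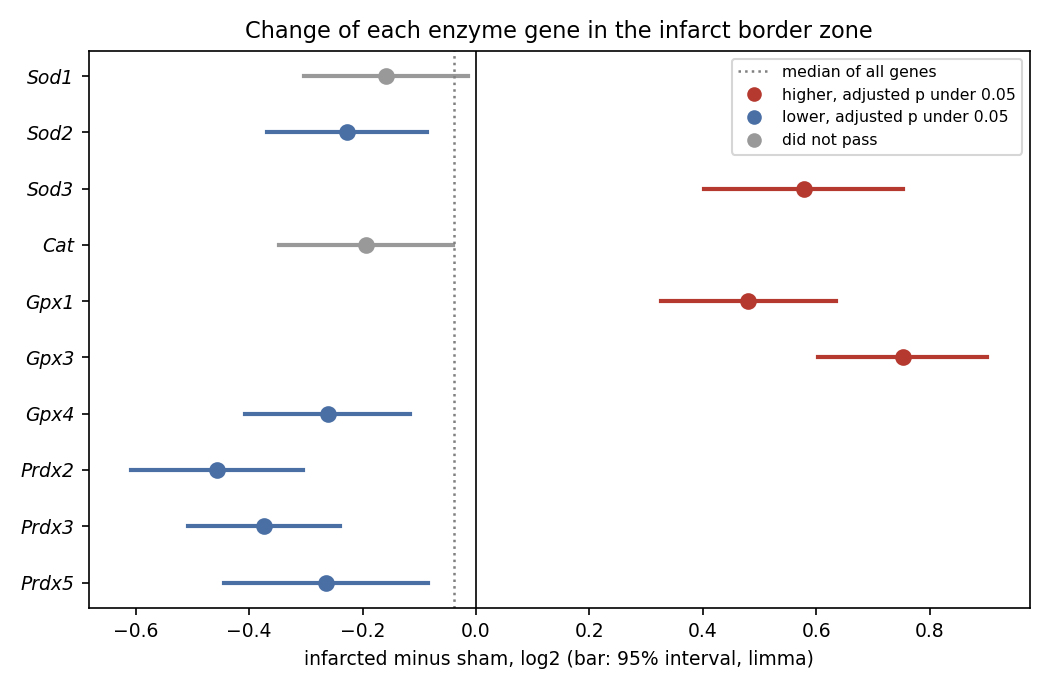
Change of each of the 10 enzyme genes, infarcted minus sham on the log2 scale (x axis), as the limma estimate with its 95% interval. Gpx3, Sod3 and Gpx1 lie to the right of 0, and the other 7 lie to the left, from -0.46 (Prdx2) to -0.16 (Sod1). Grey marks the 2 genes that did not pass, and the dotted line is the median of all genes.

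The array medians were close, from 7.045 to 7.058 in infarcted and from 6.997 to 7.026 in sham hearts, but every infarcted median lay above every sham median. The centring described above removes this offset. None of the 66 pairs of arrays held identical values. Cardiomyocyte markers, which should be bright in heart tissue, were so in every array: the linear signal summed over 10 markers lay between 94062 and 99904 in infarcted and between 101085 and 106129 in sham arrays, without overlap, and 1 of the 10 fell. Fibroblast markers rose in 10 of 10 (summed signal 19417 to 24864 in infarcted, 10254 to 11303 in sham) and macrophage and monocyte markers in 9 of 10 (3717 to 5163 in infarcted, 2250 to 2870 in sham). Smooth muscle and pericyte markers rose in 5 of 8 (7637 to 8759 in infarcted, 5623 to 7673 in sham, overlapping). Infarcted replicates 4 and 5 had the highest mean of 5 atrial markers (8.84 and 8.01, against 6.57 to 7.22 in sham), and replicate 6 also lay above sham (7.78). Of the atrial markers only Nppa passed as higher (2.04). It was higher in every infarcted array than in any sham array, so it raised the atrial mean of each infarcted array. Replicate 5 had the highest mean of 7 adipocyte markers (8.02, against 6.01 to 6.33 in sham). Without replicates 4 and 5, and with 6 kept, 3 enzyme genes rose and 3 fell, the falls of Sod2 (adjusted p = 0.0822) and Prdx5 (adjusted p = 0.156) no longer passing. In such tissue samples a smaller share of a cell type and less RNA per cell cannot be told apart.

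Promoter windows of RefSeq (GRCm38.p6, 250 bases before to 50 after a start) were found for 9 of the 10 genes, all but Sod3. They are shown for the peroxidases that rose (Gpx1, Gpx3), for mitochondrial enzymes that fell (Sod2, Prdx3) and for Sod1. Each runs 5′ to 3′ on the gene's strand, and capitals mark matches to 3 motifs, searched on both strands. The GC box was searched as GGGCGG. The TATA box was searched as TATAAA. The core of the antioxidant response element, which NRF2 binds, was searched as TGACNNNGC.
Gpx1, chr9:108338830-108339129, plus strand: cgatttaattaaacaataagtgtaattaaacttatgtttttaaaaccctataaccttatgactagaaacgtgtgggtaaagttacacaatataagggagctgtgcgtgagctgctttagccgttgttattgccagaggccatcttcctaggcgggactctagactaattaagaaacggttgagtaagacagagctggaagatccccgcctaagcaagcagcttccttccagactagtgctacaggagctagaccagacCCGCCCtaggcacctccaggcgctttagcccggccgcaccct
Gpx3, chr11:54902604-54902903, plus strand: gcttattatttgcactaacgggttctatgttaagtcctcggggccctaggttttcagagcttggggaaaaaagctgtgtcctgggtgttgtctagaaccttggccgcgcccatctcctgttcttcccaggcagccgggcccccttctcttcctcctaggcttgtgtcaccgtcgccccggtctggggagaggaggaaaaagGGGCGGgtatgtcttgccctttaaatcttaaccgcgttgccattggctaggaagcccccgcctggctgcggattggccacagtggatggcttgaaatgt
Sod2, chr17:13007589-13007888, plus strand: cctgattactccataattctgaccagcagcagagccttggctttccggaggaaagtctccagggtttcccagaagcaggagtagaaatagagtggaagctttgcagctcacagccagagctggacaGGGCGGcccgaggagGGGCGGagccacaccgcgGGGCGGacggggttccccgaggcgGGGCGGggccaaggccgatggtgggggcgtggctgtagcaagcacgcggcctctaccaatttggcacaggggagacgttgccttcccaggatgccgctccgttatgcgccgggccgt
Prdx3, chr19:60874489-60874788, minus strand: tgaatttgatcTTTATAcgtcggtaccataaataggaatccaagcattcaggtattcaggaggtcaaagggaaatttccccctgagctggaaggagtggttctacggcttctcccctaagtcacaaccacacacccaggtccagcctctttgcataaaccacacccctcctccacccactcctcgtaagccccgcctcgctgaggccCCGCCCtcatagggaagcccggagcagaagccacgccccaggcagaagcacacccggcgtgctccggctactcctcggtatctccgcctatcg
Sod1, chr16:90220512-90220811, plus strand: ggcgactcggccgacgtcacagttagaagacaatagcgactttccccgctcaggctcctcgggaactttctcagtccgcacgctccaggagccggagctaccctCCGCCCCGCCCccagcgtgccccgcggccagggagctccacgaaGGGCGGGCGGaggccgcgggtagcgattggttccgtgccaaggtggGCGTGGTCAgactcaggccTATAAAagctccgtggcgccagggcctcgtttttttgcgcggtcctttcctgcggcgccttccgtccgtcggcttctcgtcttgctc
GC boxes were present in at least 1 window of all 9 genes, against 35.7% of 32851 windows, 4 of them in Sod2 and 4, some overlapping, in Sod1. The antioxidant response element core was found in 1 of the 9 genes, Sod1, against 12.4% of windows, and the TATA box in Sod1 and Prdx3, against 13.6%. The counts are by gene and the percentages by window. Gpx4 had 4 windows, of which the first held no GC box. A match here is a match of letters only. Gpx1 and Gpx3, which rose, and Prdx3, which fell, held 1 GC box each. A relation between the number of motifs and the direction of change was not tested.

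The 3 superoxide dismutases differ by compartment. Sod3, the copper-zinc enzyme that is secreted and binds matrix proteoglycans, had a lowest, median and highest log2 signal of 8.48, 8.70 and 8.88 in infarcted arrays and of 7.96, 8.11 and 8.21 in sham arrays. Every infarcted array was above every sham array. The rise was 1.49-fold (95% interval 1.32 to 1.69, adjusted p = 0.000191), larger in size than the change of 94.2% of all genes, and 4 of its 5 probesets passed as higher, against 6.39% of all probesets. The mean levels of the fibroblast, macrophage and smooth muscle markers given above were also higher in the infarcted group. Their part in the rise was not tested.

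Sod2, the manganese enzyme of the mitochondrial matrix, lay at 12.40, 12.52 and 12.65 in infarcted arrays and at 12.68, 12.76 and 12.82 in sham arrays. The groups did not overlap, but the gap between them was narrow. It fell by 14.6% in linear signal (log2 -0.23, interval -0.37 to -0.09, adjusted p = 0.024), and it did not pass without infarcted replicate 5 (adjusted p = 0.0554) or 6 (adjusted p = 0.0549), nor with its brightest probeset alone (-0.18, adjusted p = 0.0548). All 8 probesets had negative differences and 2 passed, against 4.3% of all probesets.

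Sod1, the copper-zinc enzyme of the cytosol, lay at 11.17, 11.26 and 11.42 in infarcted arrays and at 11.34, 11.43 and 11.57 in sham arrays. The ranges overlapped, and the difference of -0.16 (interval -0.30 to -0.01) did not pass over all genes (adjusted p = 0.117). It did pass as the average of its probesets (-0.22, adjusted p = 0.00224), and all 5 of its probesets were negative, none past the threshold. Ccs, the chaperone that loads Sod1 with copper, differed by -0.09 (adjusted p = 0.454). Within arrays, the change of Sod3 minus that of Sod2 was 0.81 (interval 0.62 to 0.99), and minus that of Sod1 it was 0.74 (0.55 to 0.92). These follow from the directions already given for each gene and are a description only. For Sod2 relative to Sod1 the change was -0.07 (-0.20 to 0.06, exact permutation p = 0.275).

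**Figure D2:**
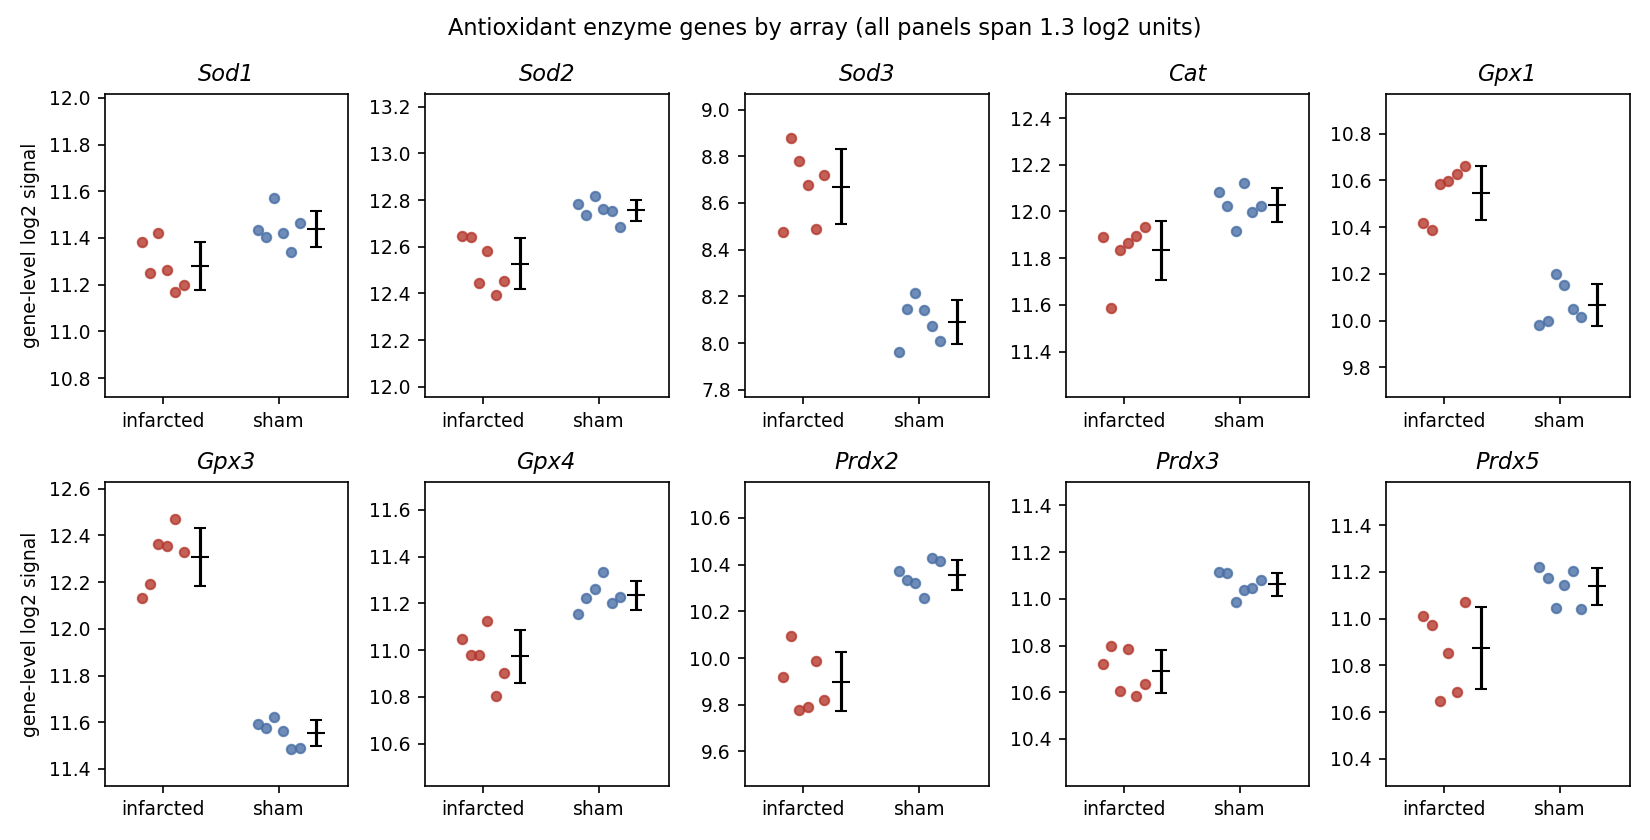
Gene-level log2 signal (y axis) of each of the 10 genes in 6 infarcted and 6 sham arrays, 1 point per array, with the mean and SD beside the points. Each panel spans the same range of 1.3 log2 units. The groups are apart for Sod2, Sod3, Gpx1, Gpx3, Gpx4, Prdx2 and Prdx3, and overlap for Sod1, Cat and Prdx5.

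Catalase, the peroxisomal enzyme that splits hydrogen peroxide without a reductant, lay at 11.59, 11.88 and 11.94 in infarcted arrays and at 11.92, 12.02 and 12.12 in sham arrays. Only the highest infarcted array reached into the sham range. The difference of -0.19 (interval -0.35 to -0.04) did not pass over all genes (adjusted p = 0.0723), although its exact permutation p was 0.00433, unadjusted. It passed when dim probesets were left out (-0.21, adjusted p = 0.0298), and 15 of its 16 probesets were negative, the exception being a dim one (0.40, adjusted p = 0.0813). Of 22 genes of peroxisome biogenesis and peroxisomal oxidation, 8 fell and none rose, with a median of -0.21. They included Pex11a, which promotes peroxisome division (-0.76), Hsd17b4, an enzyme of peroxisomal beta-oxidation (-0.36), and Phyh, of branched fatty acid breakdown (-0.37). Relative to the mean of those 22 genes Cat changed by 0.04 (interval -0.14 to 0.23, exact permutation p = 0.621).

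Of the glutathione peroxidases, Gpx3 and Gpx1 rose and Gpx4 fell. Gpx3, the secreted selenoenzyme that is also the main form in plasma, showed the largest gene-level rise of the 10, though with the brightest probeset alone the rise of Sod3 (0.67) exceeded that of Gpx3 (0.62). Gpx3 lay at 12.13, 12.34 and 12.47 in infarcted arrays and at 11.49, 11.57 and 11.62 in sham arrays, so the lowest infarcted array stood well above the highest sham array. The ratio was 1.68 (95% interval 1.52 to 1.87, adjusted p = 4.15e-06), its p ranked 142 of 20352 genes, and all 6 probesets passed as higher, by 0.62 to 0.97. The genes whose deviations from the group means ran most like those of Gpx3 over the 12 arrays were Gstcd (Pearson r = 0.95), Acvr1c (0.91) and Depdc1a (0.91). They were picked as the highest r of all genes, so the values are a description and no evidence of a link. Infarcted replicate 5, highest in Gpx3, was also the array with the most adipocyte signal. Without replicates 4 and 5 together Gpx3 still rose.

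Gpx1, the widespread selenoenzyme of cytosol and mitochondria, lay at 10.39, 10.59 and 10.66 in infarcted arrays and at 9.98, 10.03 and 10.20 in sham arrays. No infarcted array fell within the sham range. It rose 1.4-fold (1.25 to 1.55, adjusted p = 0.000293). Its probesets number only 3, of which 2 passed (0.48 and 0.46) and the other was dim (0.31, adjusted p = 0.195). The gene-level means and difference were those of the probeset at 0.48. Macrophage and monocyte markers, 9 of 10 higher, moved in the same direction, and their part was not tested.

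Gpx4, the selenoenzyme that reduces lipid hydroperoxides in membranes and restrains ferroptosis, went the other way. It lay at 10.80, 10.98 and 11.13 in infarcted arrays and at 11.16, 11.23 and 11.34 in sham arrays, without overlap. It fell by 16.6% (log2 -0.26, interval -0.41 to -0.12, adjusted p = 0.0135), with 2 of 9 probesets past the threshold and 8 of 9 negative. Of these 9 probesets 2 held identical values on all 12 arrays, so they count as 1 measurement. Within arrays the change of Gpx1 minus that of Gpx4 was 0.74 (0.56 to 0.92), and that of Gpx3 minus that of Gpx4 was 1.01 (0.81 to 1.21), which again only restates their opposite directions. Gpx3 and Gpx1 both rose, Gpx3 by 0.27 more (0.18 to 0.37, exact permutation p = 0.00216, the smallest that 6 against 6 allows, adjusted p = 0.00433 over 12 contrasts chosen after the values were seen).

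All 3 of these peroxidases carry selenocysteine. Of 15 genes of selenoprotein synthesis and selenium supply 3 rose and 1 fell, with a median of 0.03. Lrp8, a receptor for selenoprotein P in brain, rose by 0.91, Selenom, a selenoprotein of the endoplasmic reticulum, by 0.57, and Sephs1, a selenophosphate synthetase homologue, by 0.24. The fall of Pstk, the kinase that prepares the selenocysteine transfer RNA, was small (-0.26, adjusted p = 0.0489) and did not pass in 9 of 12 fits that each dropped an array (highest adjusted p = 0.102).

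The 3 peroxiredoxins all fell. Prdx3, the peroxiredoxin of the mitochondrial matrix, lay at 10.58, 10.68 and 10.80 in infarcted arrays and at 10.99, 11.06 and 11.12 in sham arrays, with a clear gap. It fell by 22.8% (log2 -0.37, interval -0.51 to -0.24, adjusted p = 0.000745), and 5 of its 7 probesets passed as lower. Of 19 measured mitochondrial genes taken as a reference, 11 fell and none rose, with a median of -0.26, among them Sdha (-0.45), Ndufv1 (-0.37) and Cyc1 (-0.36) of the respiratory chain. Relative to their mean Prdx3 changed by -0.12 (interval -0.16 to -0.08, exact permutation p = 0.00216, adjusted p = 0.00433), every infarcted array lying below every sham array. For Sod2 the same contrast was 0.03 (-0.03 to 0.08, exact permutation p = 0.329) and for Prdx5 it was -0.01 (-0.14 to 0.12, exact permutation p = 0.883). These contrasts were chosen after the values were seen. They compare with the mean of the reference genes only: Sdha and Ndufs1 (-0.48) fell more than Prdx3, and the other reference genes fell less. The gene-level value of Prdx3 was that of its probeset in the middle by signal. Its brightest probeset fell by 0.26, and a contrast with that probeset was not tested. The small drop in summed cardiomyocyte markers between the groups had the same direction as the falls of Sod2, Prdx3 and Prdx5, and its part was not tested.

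Prdx5, an atypical peroxiredoxin of mitochondria, peroxisomes and cytosol, lay at 10.65, 10.91 and 11.07 in infarcted arrays and at 11.04, 11.16 and 11.22 in sham arrays. The highest infarcted array overlapped the lowest sham arrays. The difference of -0.26 (interval -0.44 to -0.08) passed narrowly (adjusted p = 0.0378). It did not pass with its brightest probeset alone (-0.14, adjusted p = 0.122), and it did not pass in 7 of the 12 fits with 1 array left out (without infarcted replicate 3, 4 or 5 or sham replicate 1, 2, 4 or 5, with an adjusted p of 0.0638 to 0.0846). All 9 probesets were negative and 3 passed. The 4 probesets that name both Prdx5 and the neighbouring Trmt112 were left out, and with them the difference was -0.39 (adjusted p = 0.018), a setting chosen after seeing the data.

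Prdx2, an abundant cytosolic peroxiredoxin of red blood cells and many tissues, had the largest gene-level fall of the 10, a rank that rests on the median over probesets. It lay at 9.78, 9.87 and 10.09 in infarcted arrays and at 10.26, 10.35 and 10.43 in sham arrays, without overlap. At gene level it fell by 27.1% (log2 -0.46, interval -0.61 to -0.30, adjusted p = 0.000391). Its 7 probesets disagreed on the size, with a median difference of -0.20. The gene-level means and difference were those of the probeset in the middle by signal, so they do not summarise all 7. In that probeset, at 9.90 in infarcted and 10.35 in sham hearts, signal fell by 0.46 (adjusted p = 0.00271). In another, at 8.95 in infarcted and 9.42 in sham hearts, it fell by 0.47 (adjusted p = 0.0382). The 3 brightest, at 11.89, 11.89 and 12.43 in infarcted and 12.09, 12.01 and 12.56 in sham hearts, differed by -0.19, -0.13 and -0.13 and did not pass (adjusted p = 0.106, 0.302 and 0.31). The size for Prdx2 therefore depended on how probesets were combined: -0.26 with their mean (adjusted p = 0.0017), -0.29 without the dim one (adjusted p = 0.00298) and -0.13 with the brightest alone (adjusted p = 0.17). Under the first and second of these Prdx3 fell most (-0.37 in both), and under the last Gpx4 did (-0.27). Unequal change of probesets passed for Prdx2 (limma diffSplice without dim probesets, adjusted p = 0.0375) and Gpx3 (adjusted p = 0.041) of the 10, against 9.34% of 15004 genes. Erythrocyte markers, 6 of 11 measured, had a summed signal of 514 to 804 in infarcted and 606 to 1073 in sham arrays, overlapping, and 2 of the 6 fell. Their part in the fall of Prdx2 was not tested. Closest to Prdx2 in deviations from the group means over the 12 arrays were Tex10 (r = 0.87), Ccnh (0.86) and Trdn (0.85). They too were picked as the highest r of all genes, so the values are a description and no evidence of a link.

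**Figure D3:**
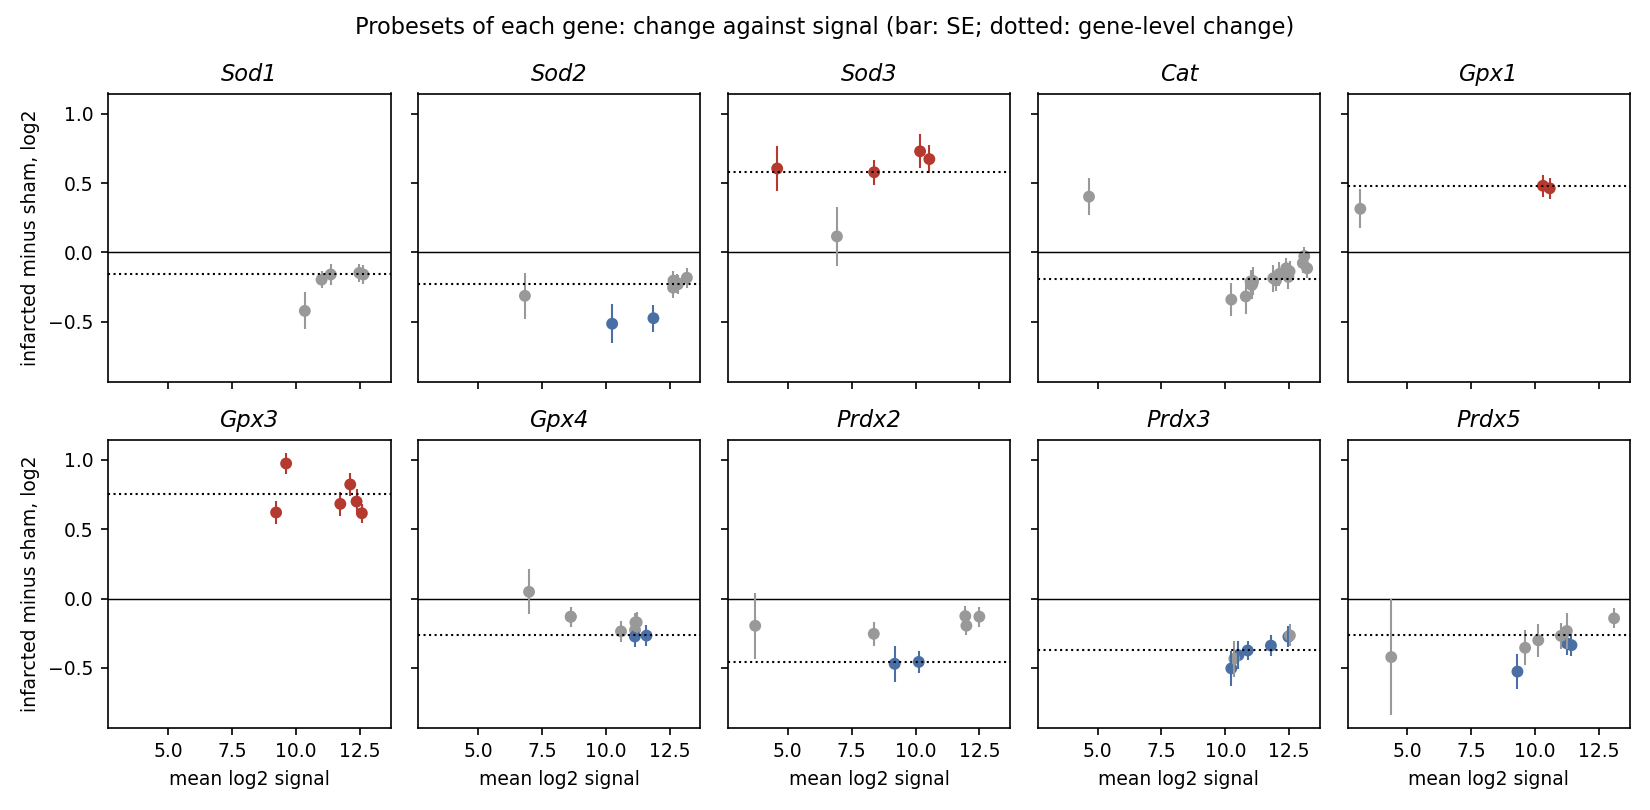
Probesets of each gene, with the mean log2 signal on the x axis and the change, infarcted minus sham on the log2 scale, on the y axis. Bars are SE, colour marks probesets past an adjusted p of 0.05 and the dotted line is the gene-level change. For Sod2, Prdx2 and Prdx5 the brightest probesets (-0.18, -0.13 and -0.14) lie closer to 0 than the gene-level change.

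The other members of these enzyme families were mostly not called. Of 9 genes (other peroxiredoxins and glutathione peroxidases, and Ccs) 1 rose and none fell, with a median of -0.09. Gpx5 and Gpx6 among them had means below the dim limit of 5.58 in both groups. The gene that rose was Gpx8, a peroxidase of the endoplasmic reticulum (0.42, adjusted p = 0.00117). Its relatives in the same compartment were positive without passing, Prdx4 at 0.37 (adjusted p = 0.0526) and Gpx7 at 0.25 (adjusted p = 0.122). Both passed as the average of their probesets (adjusted p = 0.0273 for Prdx4 and 0.0293 for Gpx7). Prdx4 also passed without dim probesets (adjusted p = 0.0477), without dim genes (adjusted p = 0.0353) and in 4 of 12 fits that each dropped an array. With the brightest probeset alone neither passed, Prdx4 being at 0.12 (adjusted p = 0.541) and Gpx7 at 0.29 (adjusted p = 0.109). The cytosolic Prdx1 (-0.17, adjusted p = 0.207) and Prdx6 (-0.20, adjusted p = 0.079) did not pass, though Prdx6 did with the average of its probesets (-0.29). Of 6 measured heme peroxidases 2 rose, Ptgs2, the inducible cyclooxygenase (1.23), and Pxdn, which cross-links collagen IV of basement membranes (0.62). Ptgs2 did not pass with its brightest probeset alone (0.35, adjusted p = 0.131). The heme peroxidases that were not called included Mpo, Epx and Lpo, with means below the dim limit in both groups.

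Peroxiredoxins are reduced through thioredoxin. Of 14 genes of the thioredoxin, glutaredoxin and sulfiredoxin system 5 fell and none rose, with a median of -0.18. Txn2, the mitochondrial thioredoxin that reduces Prdx3, fell by 0.28 (adjusted p = 0.00548) and Txnrd2, its reductase, by 0.41 (adjusted p = 0.0201). The cytosolic reductase Txnrd1 differed by 0.07 (adjusted p = 0.564). Sesn1, a sestrin, and Glrx5, a glutaredoxin of iron-sulfur cluster assembly, fell by 0.54 and 0.39.

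Of 10 measured genes that supply NADPH 6 fell and 2 rose, with a median of -0.30. Nnt, the proton-driven transhydrogenase of the inner mitochondrial membrane, fell by 0.49 (adjusted p = 0.000209). The isocitrate dehydrogenases Idh1 and Idh2 fell by 0.60 and 0.33. C57BL/6J mice are known to carry a deletion in Nnt, described further below, and NADPH itself was not measured. Pgd, of the pentose phosphate pathway, rose by 0.32 (adjusted p = 0.0103).

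Of 17 measured glutathione S-transferases, which attach glutathione to other molecules, 11 fell and none rose, with a median of -0.44. Gstm7 (-0.83), Gstk1, of mitochondria and peroxisomes (-0.84), and Gstm2 (-0.56) had the smallest p. The transferases of the mu class are close in sequence, so their single values are uncertain. Of 13 genes of glutathione synthesis, reduction and breakdown 3 fell and 1 rose, with a median of -0.11. Oplah, which recycles 5-oxoproline, and Ggt5, a transpeptidase, fell by 0.67 and 0.43, and Gsr, the glutathione reductase, differed by -0.05 (adjusted p = 0.757). The cystine carrier gene Slc7a11 rose by 0.85 at a dim signal (4.72 in infarcted, 3.86 in sham hearts) and did not pass without dim probesets (0.59, adjusted p = 0.0926).

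**Figure D4:**
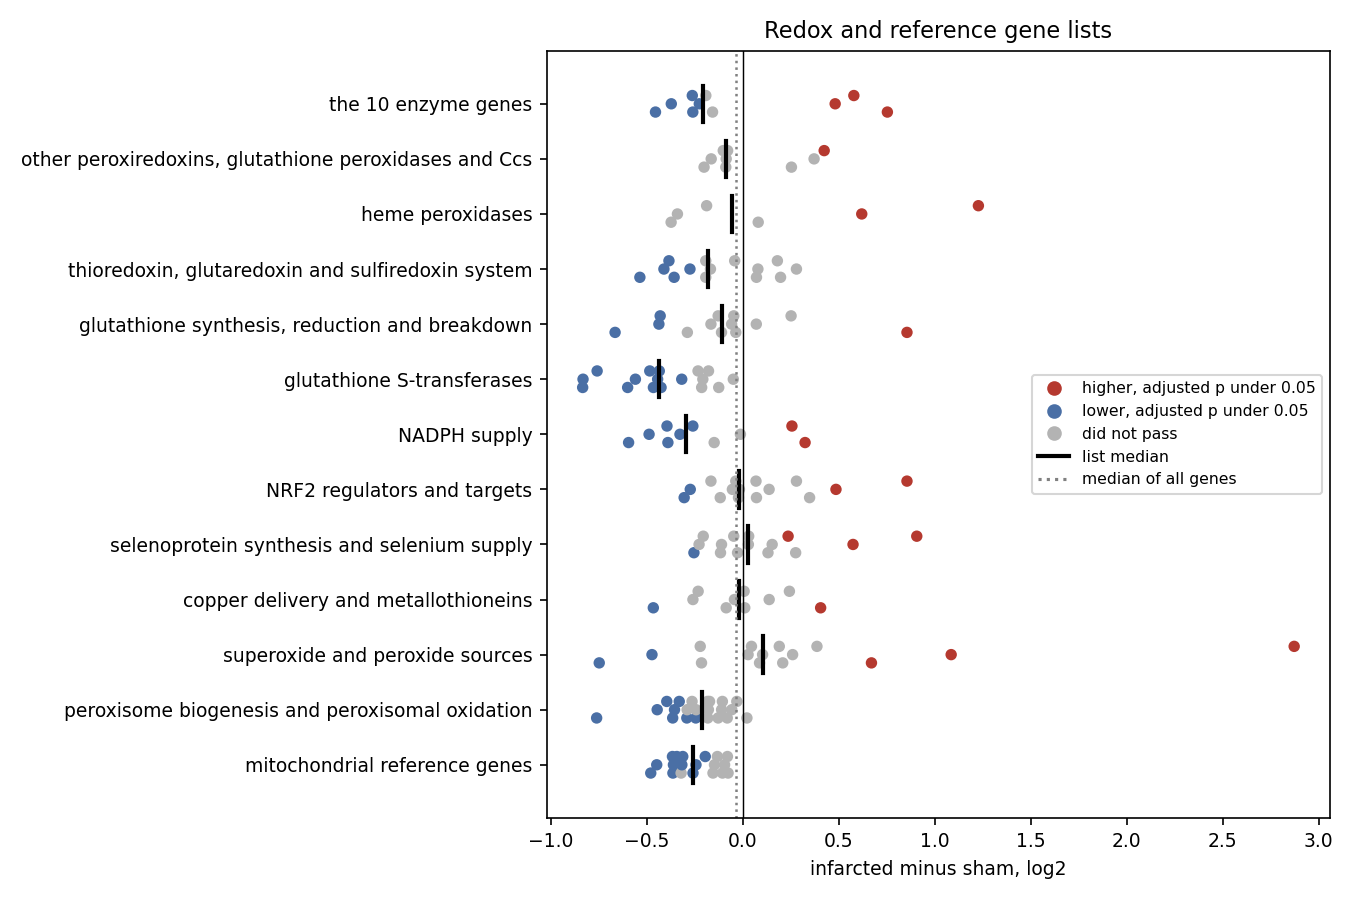
Change of every measured gene in the 10 enzyme genes and 12 redox and reference lists, infarcted minus sham on the log2 scale (x axis), 1 point per gene, with the list median as a black bar. The median is lowest for the glutathione S-transferases (-0.44), and the point farthest to the right is Nox4 (2.87).

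NRF2, encoded by Nfe2l2, is the transcription factor that binds the antioxidant response element. Nfe2l2 differed by -0.02 (adjusted p = 0.933), and of 15 NRF2 regulators and targets 2 rose and 2 fell, with a median of -0.02. Hmox1, heme oxygenase 1, rose by 0.48 (adjusted p = 0.00241), as did Slc7a11, and Nqo1, a quinone reductase, fell by 0.31 (adjusted p = 0.0292). Nqo1 did not pass in 4 of 12 fits that each dropped an array (without sham replicate 1, 2, 4 or 6, highest adjusted p = 0.059).

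Of 15 measured sources of superoxide and peroxide 3 rose and 2 fell, with a median of 0.10. Nox1, Noxa1, Duox1, Duox2 and Maoa were counted though their means lay below the dim limit of 5.58 in both groups. Nox4, an oxidase that releases mainly hydrogen peroxide, rose by 2.87 at gene level, from a sham mean of 5.53, below the dim limit. The size of this rise depended on the probeset. With its brightest probeset alone Nox4 rose by 1.298 and still passed (adjusted p = 0.000133). Cybb, the oxidase of phagocytes, rose by 1.09 (adjusted p = 0.00036), while Maob, a monoamine oxidase of the outer mitochondrial membrane, fell by 0.75. Of 10 genes for copper delivery and metallothioneins 1 rose and 1 fell, with a median of -0.02. Cox17, which brings copper to cytochrome oxidase, fell by 0.47, and the metallothionein gene Mt2 rose by 0.40 (adjusted p = 0.0343). Mt2 did not pass in 7 of 12 fits that each dropped an array (highest adjusted p = 0.0731) or with centred arrays (0.36).

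Among these pathway genes the choice of probeset mattered too. With the brightest probeset alone Txn2 (-0.15), Txnrd2 (-0.13), Oplah (-0.11), Nnt (-0.15), Cox17 (-0.22), Cyc1 (-0.13), Hmox1 (0.69), Sephs1 (0.22) and Pstk (-0.21) kept their sign and did not pass, and Selenom was at -0.075.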

How the data were processed

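RNA of 12 heart samples was measured on one-colour, biotin-labelled arrays. The deposited values are read here as log2 probeset signals, from their range (1.52 to 14.37). Affymetrix Power Tools is the one program in the submitters' processing notes. How probes were summarised and normalized, and the log base, was not stated in the sources used here. A change of all genes in one direction would not be seen.

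The platform annotation gave 1 symbol for 212097 of 241576 probesets. Symbols were updated through RefSeq synonyms, and a gene's value was the median over its probesets. For Sod1, Sod3, Gpx1, Prdx2 and Prdx3 the gene-level means and difference were therefore those of 1 probeset, the one in the middle by signal. Groups came from the sample titles. limma 3.58.1 in R 4.3.3 (lmFit, eBayes, two-sided) was fitted to all 20352 genes, and separately to all probesets, with Benjamini-Hochberg adjustment and a threshold of 0.05, without a block. The scripts were tested on simulated data. Exact permutation tests enumerated 924 splits of the arrays. The 12 within-array contrasts, with intervals from the spread between arrays, and the diffSplice test were added after the values were seen. Lists were described by counts and medians, since no list was tested as a set. All 10 members were named. From each list came up to 3 called genes with the smallest p, the first in the other direction, and 14 genes fixed by name. Members and lists were chosen with earlier results of these data known. A probeset was dim below the 30th percentile of means (5.58). Genes with means below that limit stayed in the list counts and medians. Figures used matplotlib 3.10.9. The series text calls the samples biological replicates, and 6 arrays a group limit the precision.

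Both groups carry replicate numbers 1 to 6, and deviations from the group means of same-numbered arrays correlated between -0.05 and 0.10, so the numbers were not taken as pairs.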

Additional observations from a re-analysis of the deposited data

Results flagged for a closer look

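The gene-level signal of Cat in infarcted replicate 2, at 11.59, lay below the other 5 infarcted arrays, the nearest of which was at 11.84. It was the only one of 20 groups of 6 arrays with a value this far out, and chance gives about 1 in 20. Without that array the difference of Cat was -0.14 (adjusted p = 0.126), against -0.19 with it.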

How the results depend on the processing

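Sod3, Gpx1 and Gpx3 rose and Gpx4 and Prdx3 fell, past the threshold, in every setting run. The number of enzyme genes that fell was 2 with the brightest probeset, where Sod2 (-0.18), Prdx2 (-0.13) and Prdx5 (-0.14) did not pass. It was 3 without infarcted arrays 4 and 5 (Sod2 -0.21, Prdx5 -0.21), and 3 with the replicate number as a block, where Sod2 (-0.23, adjusted p = 0.0533) and Prdx5 (-0.26, adjusted p = 0.0578) did not pass. With 1 array left out it was 3 to 5, with Sod2 between -0.25 and -0.20 and Prdx5 between -0.30 and -0.22. Sod1 passed with the mean over probesets (-0.22), with arrays centred on their medians (-0.20), with an intensity trend (-0.16) and in the exact permutation test, unadjusted (-0.16). Cat passed without dim probesets (-0.21), with centred arrays (-0.24), with an intensity trend (-0.19), without dim genes (-0.19) and in the exact permutation test, unadjusted (-0.19). Genes of the redox and reference lists that rose numbered 14, and 23 with the mean over probesets. Differences near 0 changed sign: Gsr with the mean over probesets (0.0055), the brightest probeset (0.0023) and over single arrays left out (-0.10 to 0.00096), Nfe2l2 with the brightest probeset (0.13), without dim probesets (0.058) and over single arrays left out (-0.079 to 0.062), and Txnrd1 with the brightest probeset (-0.053). Selenom, called higher, was at -0.075 with its brightest probeset. The causes were not tested. Signal near background limits what Slc7a11 can show. Leaving out 4 member probesets whose ID lies apart from the rest of their gene, chosen after seeing the data, ended no member's call.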

Other observations

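Within genes, the brightest probeset often showed the smaller change. Among the 8 enzyme genes with at least 5 probesets above the dim limit, the brightest changed less than the median probeset in 6 (Sod2, Cat, Gpx3, Prdx2, Prdx3 and Prdx5). The same held in 1007 of 1458 genes called lower (69.1%) and in 842 of 1577 called higher (53.4%). These genes were called on the median over probesets, which by itself favours a large median change. No share was computed for genes that were not called, so the percentages are a description only. For Prdx5 the brightest, at a mean of 13.09, differed by -0.14, while the median probeset differed by -0.31. For Prdx3 the values were -0.26 and -0.37.

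C57BL/6J mice are known to carry a deletion of several exons of Nnt. None of its 20 probesets had a mean under the dim limit of 5.58, the lowest being at 6.37 in infarcted and 7.004 in sham hearts, and 16 of them fell. Which exons the probesets cover was not stated in the sources used here.

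The 4 probesets shared by Prdx5 and Trmt112 differed by -0.34 to -0.44, and 2 of them passed (adjusted p = 0.0041 and 0.017).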
